A study of Mus musculus with 58 samples.

Results

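Jun, Junb, Jund, Fos, Fosb, Atf3, Egr1, Klf6, Ier2 and Dusp1 are 10 of the 55376 genes in the RNA count files. They were taken by symbol from a list of AP-1 and immediate early genes, with no threshold on any value. The list was chosen with earlier results of these data known, so a count of members that pass is no independent test of the set. The series asked how caloric restriction (CR) and a return to free feeding act on hematopoietic stem cells (HSCs) of young and old C57BL/6 male mice, and what loss of the receptors Kdr and Bmpr1a does in old HSCs. RNA was measured in 34 libraries, open chromatin (ATAC-seq) in 10, histone marks in 8 and binding of the transcription factor PU.1 in 6. Of these, the 4 ATAC-seq and 4 histone libraries of old mice on free feeding were not analysed here.

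In the old groups, mice of 24 to 26 months had fed ad libitum (OAL, 4 RNA libraries), had been on lifelong 40% CR (OCR, 4 libraries), or had returned to free feeding for 4 weeks after lifelong CR (OCRRF, 2 libraries). Young mice entered the study at 3 to 4 months and fed ad libitum (YAL, 4 libraries), were restricted for 4 weeks, with 20% CR in the opening week and 40% from then on (YCR, 4 libraries), or were refed for 4 weeks after that (YCRRF, 4 libraries). These cells were sorted from the LSK fraction (no lineage markers, Sca-1 and c-Kit present) as CD150-positive cells without CD34 or Flk2. For the knockdowns, HSCs of aged mice were infected in culture with lentiviral shRNA and grown in lethally irradiated female CD45.1 recipients together with myeloid progenitors before a different sort, LSK CD48-negative CD150-positive CD45.2-positive. GFP_Kdr (4 libraries) carried a Kdr shRNA and GFP_Scramble (2 libraries) its scramble. Double_KdrBmpr (4 libraries, 2 for each of 2 Bmpr1a shRNAs) carried both viruses and Double_Scramble (2 libraries) both scrambles. The knockdown libraries used another RNA extraction, kit version and sequencer than the diet libraries, so levels are compared within each set only. For the diet RNA data the paper's legends give n as mice, with the same numbers as the libraries. They do not say outright that each library holds 1 mouse, and the number of recipients per knockdown library was not stated. Each p-value therefore measures the spread between these libraries.

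AP-1 is a dimer of basic leucine zipper proteins: a Jun protein pairs with another Jun, a Fos or an Atf protein and binds short DNA sites in promoters and enhancers. Immediate early genes are transcribed within minutes of a growth factor, cytokine or stress signal without new protein synthesis, largely through MAP kinases that act on serum response factor with its ternary complex factors and on CREB, and their mRNAs decay fast. In bone marrow, cytokines induce them, tissue dissociation and sorting do so too, and loss of Junb or of Egr1 in mice releases HSCs into proliferation.

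Total counts per library were 23497989 to 34385179 in the old, 11102898 to 36579392 in the young and 35657999 to 44780217 in the knockdown libraries. A count of 0 allows a level of up to 0.0669 to 0.274 CPM (counts scaled to library size, with TMM factors), taking 3 counts as the limit, and covers counting error only. All 8 stem cell markers used here (Kit, Ly6a, Slamf1, Procr, Mecom, Hlf, Fgd5 and Hoxb5) had counts in every library. Their summed level was 3063 to 3576 CPM in OAL, 2789.9 to 3320.1 in OCR, 2751 to 2769 in OCRRF, 3007 to 3355 in YAL, 2979 to 3201 in YCR and 2625 to 3517 in YCRRF, with Kit the most abundant. Cd34 and Flt3, which the sort of the diet libraries selects against, and Cd48, which that of the knockdown libraries does, summed to 129 to 160.4 CPM in OAL and 173 to 223 in YAL.

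Library background differed between the sets. Olfactory and vomeronasal receptor genes (1971 genes) summed to 553 to 788 CPM in OAL, 587 to 1313 in OCR and 1213 to 1553 in OCRRF, against 69.2 to 499 in the young and 22.9 to 44.1 in the knockdown libraries. Genes with a count numbered 42071 to 46646 in the old and 22209 to 33496 in the young libraries. YCRRF replicate 3 stood apart with 4.09% mitochondrial counts, and YCRRF replicate 4 had the lowest depth, 11102898 counts. In these bulk libraries, fewer cells with a transcript and less of it per cell cannot be told apart.

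Some members share exon bases with a gene on the other strand: Jund with Gm11175 (877 bases), Jun with Junos (232), Junb with Prdx2 (173) and Dusp1 with Ergic1 (11). The strand setting of the counting is not given in the sources used here, so reads from those bases cannot be told apart by strand. In the mouse genome (mm10, GENCODE M21), the Jun family genes lie at chr4:95049034-95052222 (Jun, minus strand), chr8:84974484-84978718 (Junb, minus strand) and chr8:70698949-70700616 (Jund, plus strand). Fos lies at chr12:85473890-85477273 (plus strand), Fosb at chr7:19302696-19310051 (minus strand) and Atf3 at chr1:191170296-191218039 (minus strand). Klf6 lies at chr13:5861482-5870394 (plus strand), Ier2 at chr8:84661331-84662852 (minus strand) and Dusp1 at chr17:26505590-26562128 (minus strand), while Egr1 is on chromosome 18.

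Per kilobase of exon, Ier2, a small nuclear protein of the immediate early response, had the highest mean level over the 22 diet libraries, 63.5 (38.0 to 85.3) CPM per kb, with the range over libraries in parentheses. Jund, the AP-1 protein that many resting cells express, followed with 35.3 (24.4 to 45.2), and Junb, a weaker activator than Jun, with 27.0 (18.0 to 41.6). Egr1, a zinc finger transcription factor, had 15.6 (5.37 to 35.5) and Klf6, a Krüppel-like factor, 14.7 (10.2 to 25.5). Dusp1, a phosphatase that inactivates MAP kinases, had 9.99 (7.24 to 15.9) and Jun 9.61 (2.29 to 22.9). Fos, which binds DNA only with a Jun partner, came lower at 0.706 (0 to 1.98), followed by the stress-induced Atf3 at 0.179 (0 to 0.659) and Fosb at 0.0664 (0 to 0.214). Neighbours in this order overlapped in range except Jun and Fos. In the knockdown libraries the order was Ier2, 66.4 (59.9 to 75.1), Jund, 33.5 (28.9 to 47.6), Junb, 16.5 (13.6 to 21.0), Klf6, 13.6 (9.16 to 19.0), Dusp1, 10.6 (8.85 to 12.4), Egr1, 7.51 (3.36 to 11.5), and Jun, 5.08 (2.61 to 8.47). There, Ier2 and Jund, and Jund and Junb, did not overlap, the others from Junb to Jun did with their neighbours, and Fos followed at 0.510 (0.170 to 1.81), with Atf3 and Fosb lowest.

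**Figure D1:**
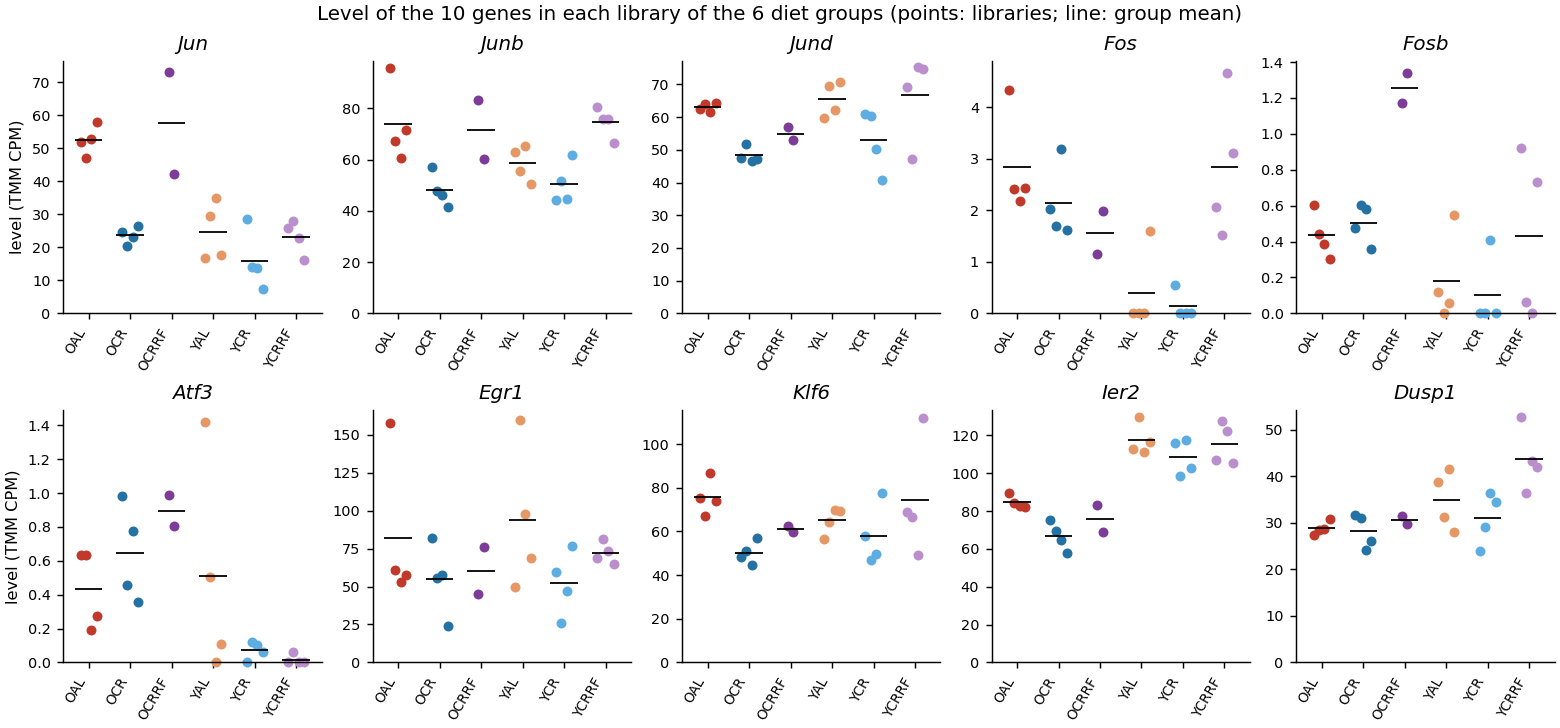
Level of each of the 10 genes (y axis, TMM CPM) in every library of the 6 diet groups; points are libraries and lines are group means. All 4 OCR libraries lie at 20.5 to 26.3 CPM for Jun, below the 4 OAL libraries at 46.9 to 58.0, while for Dusp1 the same groups overlap.

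Lifelong CR against ad libitum feeding in old mice (OCR versus OAL) asks how restriction acts on aged HSCs. The Jun family, Klf6 and Ier2 were lower in OCR, in every OCR library against every OAL library, whereas Dusp1 and the weakly expressed Fos, Fosb and Atf3 had overlapping groups. Of the 10 members, 5 passed the test, all of them lower, against 5.57% of the 27150 genes tested in either direction and 3.03% in the lower direction. Because the members were chosen with earlier results of these data known, the count and the share describe the set and do not test it. A gene passed at an adjusted p below 0.05 (edgeR quasi-likelihood test, Benjamini-Hochberg over all genes tested) with a fold change above 1.2. The median log2 fold change was -0.39 over the members and 0.023 over all genes tested.

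Jun, the AP-1 subunit that pairs with all the others, had 51.9, 46.9, 52.8 and 58.0 CPM in the 4 OAL libraries and 24.6, 20.5, 23.0 and 26.3 CPM in the 4 OCR libraries. The 2 groups did not overlap and Jun fell in OCR (log2 fold change -1.13, SE 0.10, adjusted p = 7.8e-09). Its antisense neighbour Junos, which shares exon bases with it, had 8.08 to 9.81 CPM in OAL and 3.82 to 4.71 in OCR, also without overlap. Junb, which restrains cell cycle entry in myeloid cells, had 95.7, 67.3, 60.7 and 71.3 CPM in OAL and 57.0, 47.9, 46.3 and 41.3 in OCR. Every OCR library was below every OAL library for Junb, OAL replicate 1 was the highest, and the gene fell (log2 fold change -0.60, SE 0.11, adjusted p = 8.6e-04). Its opposite-strand neighbour Prdx2 overlapped between the groups, with 233 to 241 CPM in OAL and 224 to 268 in OCR. Jund, the least inducible of the Jun proteins, had 62.6, 64.1, 61.5 and 64.3 CPM in OAL and 47.5, 51.8, 46.7 and 47.2 in OCR. The groups were tight and separate, and Jund fell (log2 fold change -0.37, SE 0.083, adjusted p = 0.00507). Gm11175, which overlaps Jund on the other strand, had 35.9 to 39.5 CPM in OAL and 30.1 to 32.0 in OCR, again without overlap, and its share in the Jund counts was not tested.

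Klf6, a zinc finger activator induced by growth and injury signals, had 75.4, 67.1, 86.7 and 74.0 CPM in OAL and 48.3, 51.2, 44.8 and 57.0 in OCR. No OCR library reached an OAL library, and Klf6 fell (log2 fold change -0.57, SE 0.10, adjusted p = 1.6e-04). Ier2 had 89.3, 84.5, 82.9 and 82.0 CPM in OAL and 75.2, 69.4, 64.5 and 57.8 in OCR. It fell in OCR without overlap of the groups (log2 fold change -0.33, SE 0.087, adjusted p = 0.0198), but this call rests on few libraries: the log2 fold change was -0.30 without OAL replicate 1, -0.31 without OAL replicate 2 and -0.27 without OCR replicate 4, and none of these passed the test. Egr1, which holds HSCs in quiescence in mouse models, had 158, 60.9, 52.8 and 57.7 CPM in OAL and 82.1, 55.9, 57.5 and 24.1 in OCR. OAL replicate 1 was far above the rest of its group, OCR replicate 1 was above the other 3 OAL libraries, and Egr1 did not pass the test (log2 fold change -0.57, unadjusted p = 0.0371, adjusted p = 0.265). It passed without the filter on low counts (log2 fold change -0.59) and with a replicate block (-0.53), and its adjusted p ran from 7.3e-08 to 1 over the alternatives.

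Fos had 4.34, 2.41, 2.18 and 2.43 CPM in OAL and 2.03, 1.70, 3.19 and 1.62 in OCR. OCR replicate 3 exceeded 3 OAL libraries, so the groups overlapped (log2 fold change -0.41, SE 0.27, adjusted p = 0.514). Fosb, a Fos relative induced by prolonged stimulation, stayed below 1 CPM, with 0.603, 0.443, 0.385 and 0.304 in OAL and 0.475, 0.603, 0.581 and 0.360 in OCR. Atf3, which can repress as well as activate its targets, had 0.632, 0.633, 0.192 and 0.274 CPM in OAL and 0.981, 0.460, 0.774 and 0.360 in OCR. Neither gene separated the groups (log2 fold change 0.23 with SE 0.47 for Fosb and 0.57 with SE 0.49 for Atf3). Dusp1 had 27.3, 28.6, 28.7 and 30.8 CPM in OAL and 31.7, 31.1, 24.1 and 26.0 in OCR. The OAL libraries lay inside the range of the OCR libraries, so Dusp1, unlike the Jun genes, showed no shift beyond the spread (log2 fold change -0.014, SE 0.11, adjusted p = 0.972).

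Among the other 8 AP-1 family genes, 1 passed: Fosl2, a Fos relative, fell (log2 fold change -0.64, SE 0.13), from 17.3 to 27.4 CPM in OAL to 13.5 to 16.8 in OCR. Of 30 other immediate early genes, 4 fell and 1 rose. The transcriptional repressor Klf10 had 264 to 335 CPM in OAL and 141 to 150.1 in OCR (log2 fold change -1.01, SE 0.082), the cytokine signalling inhibitor Socs3 fell (-0.79, SE 0.16) and so did the stress gene Gadd45g (-0.77, SE 0.11). Btg2, an antiproliferative gene, rose (0.67, SE 0.17). Of 21 upstream kinases and promoter factors, 1 rose (Creb1, which binds CRE sites, 0.32, SE 0.093) and 1 fell (Mef2c, -0.35, SE 0.078). Of 13 feedback phosphatases and Ras-ERK inhibitors, 1 fell (Spry1, -0.62, SE 0.11). Creb1 did not pass with DESeq2, with a replicate block, or without OCR replicate 2 or 4 or OAL replicate 3 or 4, and Btg2 did not without OCR replicate 4. The median log2 fold changes of the AP-1, immediate early, upstream and feedback lists were -0.17, -0.19, -0.026 and -0.066.

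The heat shock genes, listed with a handling response in mind, went the other way, with 4 of 10 higher. Among them were the chaperones Hsph1 (0.59, SE 0.12), Hspa8 (0.54, SE 0.13) and Hspe1 (0.38, SE 0.10). Whether the heat shock genes follow handling or diet was not tested. Their sum was 2021, 1877, 2118 and 1769 CPM in the OAL and 2942, 2491, 1881 and 2733 in the OCR libraries, with Hspa8 the most abundant. Without OCR replicate 1, 2 of the 10 passed. Stem cell markers fell for 3 of 8, namely Fgd5 (-0.50, SE 0.094), Ly6a (-0.47, SE 0.084) and Procr (-0.46, SE 0.084). The erythroid sum was 139, 32.6, 139.7 and 209 CPM in OAL and 33.8, 33.3, 63.0 and 30.8 in OCR, 3 of 6 genes fell and none was at 0, with Hbb-bs on top (-2.22, SE 0.35) and Hba-a1 next to it (-2.17, SE 0.37). B and plasma cell genes summed to 36.9 to 82.3 and 34.2 to 41.0 CPM and 1 of 5 fell (Jchain, -5.03, SE 0.81), and T and NK cell genes summed to 12.9 to 14.2 and 16.1 to 29.6 CPM and 1 of the 5 tested rose (Nkg7, 0.81, SE 0.16). Granulocyte and monocyte genes summed to 413 to 520.1 and 395 to 478 CPM with 1 of 8 higher, megakaryocyte genes to 61.0 to 74.7 and 60.1 to 116 CPM and stromal and endothelial genes to 15.7 to 18.0 and 16.7 to 24.3 CPM with none called. The mitochondrial share of counts, 1.36 to 1.55% in OAL and 1.14 to 1.29% in OCR, did not overlap. Whether handling, these cell types, the receptor gene background or RNA quality have a part in the lower Jun, Junb, Jund, Klf6 and Ier2 was not tested.

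DESeq2 called the same 5 members in OCR versus OAL, against 10.7% of all genes to which it gave an adjusted p, the base of every DESeq2 share below. With all 6 diet groups in a single fit, none of the 10 passed, although Jun (log2 fold change -1.15, adjusted p = 0.0748, range over the alternatives 7.9e-27 to 0.0748) and Junb (-0.62, adjusted p = 0.0595, range 2.0e-08 to 0.0595) kept their size. So did Klf6 (-0.59), Jund (-0.39) and Ier2 (-0.34), and of the list genes named above Klf10, Spry1 and Procr still passed in that fit. Over all genes, 689 were higher and 822 lower in OCR, or 894 and 697 with scaling factors from genes of at least 5 CPM, under which the same 5 members passed.

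Refeeding after lifelong CR (OCRRF versus OCR) asks what a return to free feeding does in old HSCs. Jun and Junb were higher in both OCRRF libraries than in every OCR library and passed the test. Jund, Klf6 and, at a low level, Fosb were also higher in both, without passing. Of the 10 members, 2 passed, against 3.41% of all genes in either direction and 0.694% in the higher direction. The comparison shares the OCR libraries with OCR versus OAL, so the 2 sets of values are not independent.

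Jun had 73.0 and 42.1 CPM in the 2 OCRRF libraries against 20.5 to 26.3 in OCR. Both lay above all 4 OCR libraries, replicate 1 well above replicate 2, and Jun rose (log2 fold change 1.24, SE 0.16, adjusted p = 8.7e-07). It passed without either OCRRF library, at 0.74 without replicate 1 and 1.63 without replicate 2. Junos had 11.2 and 8.07 CPM against 3.82 to 4.71. Junb had 83.3 and 60.1 CPM against 41.3 to 57.0 in OCR and rose (log2 fold change 0.52, SE 0.14, adjusted p = 0.0263). This call depends on single libraries: the log2 fold change of Junb was 0.22 without OCRRF replicate 1, 0.53 without OCR replicate 2 and 0.43 without OCR replicate 4, and each missed the threshold, while it passed at 0.79 without OCRRF replicate 2. DESeq2 (0.44), its size factors in edgeR (0.46) and a replicate block (0.36) did not call it either (DESeq2 called Jun alone, against 17.4% of all genes), and its adjusted p ran from 0.00122 to 0.660 over the alternatives. Jund had 57.1 and 53.0 CPM, above all OCR libraries by a small margin, without passing (log2 fold change 0.13, SE 0.12, adjusted p = 0.625).

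Fosb had 1.17 and 1.34 CPM in OCRRF against 0.360 to 0.603 in OCR. Both refed libraries were above all 4 restricted ones, but the change missed the threshold (log2 fold change 1.25, unadjusted p = 0.0154, adjusted p = 0.174). Fos had 1.14 and 1.99 CPM, with replicate 1 below all OCR libraries and replicate 2 inside their range, and Atf3 had 0.988 and 0.803, with replicate 1 just above that range and replicate 2 inside it. Klf6 had 62.6 and 59.5 CPM against 44.8 to 57.0, higher in both libraries without passing (log2 fold change 0.22, SE 0.13, adjusted p = 0.382). Egr1 had 44.8 and 76.2, Ier2 83.3 and 68.9 and Dusp1 31.6 and 29.7 CPM, each overlapping the OCR libraries. For 6 of the 7 abundant members (Jun, Junb, Jund, Klf6, Ier2, Dusp1) OCRRF replicate 1 was above replicate 2, and Egr1 was the exception. 

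Fosl2 rose with Jun and Junb, to 22.6 to 47.5 CPM (log2 fold change 1.199, SE 0.18), as 1 of 8 other AP-1 genes. Of 30 other immediate early genes 1 rose (Klf10, 0.72, SE 0.14). The p38 kinase gene Mapk14 fell (-0.40, SE 0.12), 1 of 21 upstream genes, and so did the ERK phosphatase gene Dusp6 (-0.53, SE 0.15), 1 of 13 feedback genes. Heat shock genes fell for 2 of 10 (Hspe1, -0.49, SE 0.14; Hsp90aa1, -0.46, SE 0.13), and their sum was 1958 to 1982 CPM. Among stem cell markers Ly6a rose (0.46, SE 0.12) and Kit fell (-0.49, SE 0.12). Hemoglobin genes rose (Hba-a1, 1.66, SE 0.32, and Hbb-bs, 1.56, SE 0.28), with an erythroid sum of 49.0 and 139 CPM. Nkg7 fell (-1.24, SE 0.25), as 1 of 5 T and NK cell genes tested, whose median log2 fold change was 0.33. Pf4 (-1.06, SE 0.23) and Gp9 (-0.58, SE 0.14) fell, as 2 of 3 megakaryocyte genes tested. B and plasma cell genes summed to 41.5 to 44.4 CPM against 34.2 to 41.0 in OCR, without overlap (median log2 fold change 1.29, 4 of 5 with an unadjusted p below 0.05, none passed), and neither did the sums of stem cell markers (2751 to 2769 against 2789.9 to 3320.1) and megakaryocyte genes (46.9 to 54.6 against 60.1 to 116) overlap. The receptor gene background, 1213 to 1553 CPM, was above that of 3 OCR libraries, and the mitochondrial share of counts, 1.38 to 1.53% against 1.14 to 1.29%, did not overlap. The part of these cell types, of handling, of the background and of RNA quality in the higher Jun and Junb was not tested. Many of these list calls depend on single libraries: Fosl2 and Klf10 did not pass without OCRRF replicate 1, the hemoglobin genes not without OCRRF replicate 2 or with DESeq2, and Kit and Ly6a passed in neither of the fits without an OCRRF library. Mapk14, Dusp6, Hspe1 and Hsp90aa1 did not pass without OCRRF replicate 1, OCRRF replicate 2 or OCR replicate 2, nor with scaling factors from genes of at least 5 CPM, under which Nkg7, Pf4 and Gp9 did not pass either. With all 6 diet groups in a single fit none of the genes of these lists passed.

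The median of all genes was 0.11 on the log2 scale in OCRRF versus OCR, and 0.24 with scaling factors from genes of at least 5 CPM. With the latter, 341 genes were higher and 575 lower instead of 226 and 884, and Jun and Junb still passed. The edgeR count of 1110 genes, and with it the background share, depends on single libraries: it was 352 without OCRRF replicate 1, 522 without OCRRF replicate 2, 645 without OCR replicate 2 and 2755 without OCR replicate 3. With all diet groups in a single fit neither did (Jun 1.29, Junb 0.58).

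Refed old mice against those never restricted (OCRRF versus OAL) show whether levels after refeeding match those of lifelong free feeding. The 2 OCRRF libraries lay on either side of the OAL range for Jun, and inside and just below it for Junb, whereas Klf6 and Jund stayed below every OAL library and Fosb lay above every one. By edgeR 0 of 10 members passed, against 4.14% of all genes, and 4 had an unadjusted p below 0.05 (with the fold change minimum, 3), against 26.9% of all genes. DESeq2 called 4, Fos, Fosb, Jund and Klf6, against 19.3% of all genes by DESeq2. The background itself is unstable: the 1316 genes called by edgeR became 38 and 62 without OCRRF replicate 1 or 2, and 78, 101, 385 and 252 without OAL replicate 1, 2, 3 or 4.

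Jun had 73.0 and 42.1 CPM in OCRRF and 51.9, 46.9, 52.8 and 58.0 in OAL. Replicate 1 was above and replicate 2 below all OAL libraries (log2 fold change 0.13, SE 0.15, adjusted p = 0.586). Klf6 had 62.6 and 59.5 CPM against 75.4, 67.1, 86.7 and 74.0, with no overlap (log2 fold change -0.32, SE 0.093, adjusted p = 0.0550). Jund had 57.1 and 53.0 CPM against 62.6, 64.1, 61.5 and 64.3, again with both refed libraries below (log2 fold change -0.21, SE 0.081, adjusted p = 0.115). Fosb had 1.17 and 1.34 CPM against 0.603, 0.443, 0.385 and 0.304, and both refed libraries were above (log2 fold change 1.51, SE 0.45, adjusted p = 0.0592). Fos had 1.14 and 1.99 CPM against 4.34, 2.41, 2.18 and 2.43, both refed libraries below (log2 fold change -0.89, SE 0.34, adjusted p = 0.117). Over the alternatives the adjusted p ran from 0.00253 to 1 for Klf6, 0.0146 to 1 for Jund, 0.0328 to 1 for Fosb and 0.0441 to 1 for Fos. Junb (-0.052), Egr1 (-0.46), Ier2 (-0.17), Dusp1 (0.074) and Atf3 (1.03) had unadjusted p of 0.726, 0.169, 0.0711, 0.468 and 0.0759. Egr1 passed without the filter on low counts (log2 fold change -0.48), and its adjusted p ran from 6.1e-05 to 1 over the alternatives. The median of all genes was 0.12, or 0.26 with factors from genes of at least 5 CPM, under which the log2 fold change of Junb became 0.091 and 754 genes were higher and 54 lower, instead of 528 and 788. Marker sums that did not overlap were those of stem cell markers, 2751 to 2769 CPM in OCRRF against 3063 to 3576 in OAL, of Cd34, Flt3 and Cd48, 118 to 125 against 129 to 160.4, of megakaryocyte genes, 46.9 to 54.6 against 61.0 to 74.7, and of stromal and endothelial genes, 18.5 to 21.2 against 15.7 to 18.0. The libraries of the 2 groups also differ in receptor gene background, 1213 to 1553 against 553 to 788 CPM, in genes with a count, 46232 to 46646 against 42071 to 43972, and in depth, 23497989 to 29180038 against 30235212 to 33772852 counts, so refeeding and these differences between the libraries cannot be told apart. The part of all of these in the member values was not tested.

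**Figure D2:**
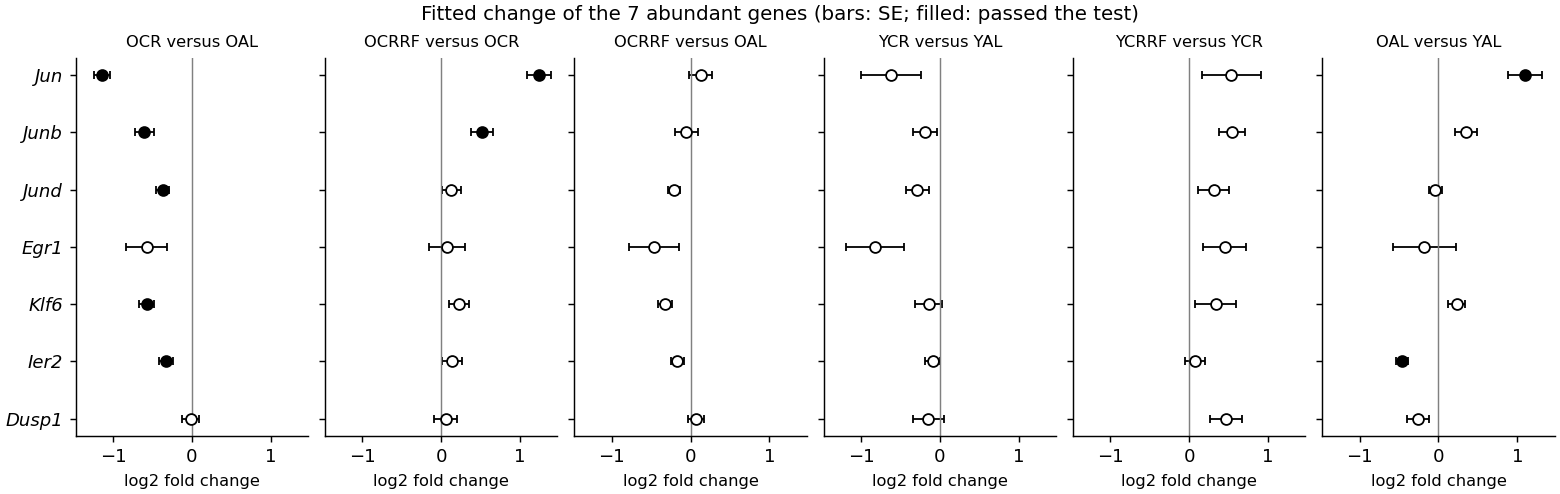
Fitted log2 fold change (x axis) of the 7 abundant genes in 6 diet comparisons; bars are standard errors and filled points passed the test. Jun is at -1.13 in OCR versus OAL, 1.24 in OCRRF versus OCR and 1.09 in OAL versus YAL, and no young comparison has a filled point.

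Short CR in young mice (YCR versus YAL) asks how 4 weeks of restriction act on young HSCs. No member separated the groups, and Jun, Junb, Jund and Egr1 each had at least 1 YCR library inside the YAL range. None of the 7 members tested passed by edgeR (count 0), against 0.257% of all genes, and 1 (Egr1) had an unadjusted p below 0.05, against 9.29% of all genes. DESeq2 called none, against 2.56% of all genes by DESeq2. Fos, Fosb and Atf3 were too low to be tested, with at most 1.59, 0.549 and 1.42 CPM in YAL and 0.548, 0.409 and 0.118 in YCR.

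Jun had 16.7, 29.4, 35.0 and 17.8 CPM in YAL and 28.5, 14.1, 13.7 and 7.31 in YCR. YCR replicate 1 was close to YAL replicate 2, while the other 3 were below every YAL library (log2 fold change -0.62, SE 0.38, adjusted p = 0.685). Junb had 62.8, 55.7, 65.5 and 50.3 CPM in YAL and 44.3, 51.5, 44.7 and 61.8 in YCR, with overlap (log2 fold change -0.19, SE 0.15, adjusted p = 0.805). Jund had 59.8, 69.4, 62.2 and 70.8 and 61.1, 60.3, 50.4 and 40.7 CPM, again overlapping (log2 fold change -0.28, SE 0.15, adjusted p = 0.620). Egr1 had 50.0, 159, 97.6 and 68.5 CPM in YAL and 59.4, 25.7, 47.0 and 76.4 in YCR. YAL replicate 2 was the highest of the 8 libraries and YCR replicate 2 the lowest (log2 fold change -0.82, unadjusted p = 0.0451, adjusted p = 0.520), and Egr1 passed only without the filter on low counts (log2 fold change -0.84, adjusted p over the alternatives 1.5e-05 to 0.807). Klf6, Ier2 and Dusp1 overlapped as well: 56.7, 64.3, 70.0 and 69.5 against 58.1, 46.9, 49.6 and 77.8 CPM for Klf6. Ier2 had 113, 129.8, 111 and 117 against 116, 98.4, 117 and 103 CPM. Dusp1 had 38.8, 31.2, 41.5 and 28.1 against 24.0, 29.1, 36.5 and 34.6 CPM. The log2 fold changes of these 3 were -0.14, -0.092 and -0.15, within 0.17, 0.10 and 0.20 (SE) of 0. All 7 members tested had a negative log2 fold change, with a median of -0.19 against 0.0083 for all genes. Of the heat shock genes, 3 of 10 rose (Hsph1, 0.97, SE 0.13; Hspa8, 0.80, SE 0.10; Hsp90aa1, 0.56, SE 0.072), from a sum of 2396 to 2717 to 3362 to 4344 CPM, and no gene of the other 12 lists passed. B and plasma cell genes summed to 148, 79.1, 99.9 and 87.9 CPM in YAL and 71.0, 592, 471 and 316 in YCR, most of all Jchain or Ighm in YCR replicates 2 to 4, with Jchain at 0 in YCR replicate 1 and in YAL replicates 3 and 4. 2 of these 5 genes had an unadjusted p below 0.05, and the part of these cells and of handling in the member values was not tested. The 48 genes called in all became 6 to 28 with any 1 library left out.

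Refeeding of young mice (YCRRF versus YCR) asks whether young HSCs respond to a return to free feeding. Junb, Fos and, by a narrow margin, Dusp1 were higher in all 4 refed libraries than in all 4 restricted ones. Of the 8 members tested 0 passed by edgeR, against 0.0102% of all genes, and 3 (Junb, Fos and Dusp1) had an unadjusted p below 0.05, against 7.27% of all genes. DESeq2 called 1, Fos, against 1.9% of all genes by DESeq2.

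Junb had 80.6, 75.9, 76.0 and 66.3 CPM in YCRRF and 44.3, 51.5, 44.7 and 61.8 in YCR. The groups did not overlap (log2 fold change 0.54, unadjusted p = 0.00585, adjusted p = 0.385). Fos had 2.07, 1.53, 4.66 and 3.10 CPM in YCRRF and 0.548, 0, 0 and 0 in YCR, where 3 libraries had no count. The fitted change was large with a wide error (log2 fold change 4.26, SE 1.40, adjusted p = 0.470, range over the alternatives 0.0297 to 0.813). Granulocyte and monocyte genes, most of all Lyz2, summed to 1079, 1927, 1312 and 674 CPM in the same YCRRF libraries and to 728, 458, 395 and 523 in YCR, with Elane at 0 in YCRRF replicate 4 and Ngp at 0 in YCR replicates 2 and 3. B and plasma cell genes summed to 50.6, 68.3, 46.7 and 45.0 CPM in YCRRF, with Cd79b on top, and to 71.0, 592, 471 and 316 in YCR. The 2 groups did not overlap (median log2 fold change -5.02 over 5 genes, 4 of them with an unadjusted p below 0.05), with Ms4a1 at 0 in YCRRF replicates 1 and 4, Cd79a in replicate 3 and Ighm in replicate 4. Heat shock genes summed to 3442, 2321, 2724 and 2767 CPM in YCRRF and 4344, 4057, 3649.8 and 3362 in YCR, with overlap (median log2 fold change -0.39, 5 of 10 with an unadjusted p below 0.05, Hspa1a at 0 in YCRRF replicates 1 and 3). The highest Fos value is from YCRRF replicate 3, the library with 4.09% mitochondrial counts. The part of both cell types, of handling and of library quality in the Junb, Fos and Dusp1 values was not tested. Dusp1 had 52.8, 36.5, 43.4 and 42.0 CPM against 24.0, 29.1, 36.5 and 34.6, without overlap, although YCRRF replicate 2 was only just above YCR replicate 3 (log2 fold change 0.47, unadjusted p = 0.0394, adjusted p = 0.645). Jun had 25.8, 28.0, 22.7 and 16.1 CPM (0.53), Jund 69.3, 47.1, 75.4 and 74.8 (0.31) and Egr1 69.0, 81.3, 73.2 and 64.8 (0.45), each overlapping YCR. Klf6 had 69.1, 66.7, 49.2 and 112 CPM (0.34) and Ier2 107, 127, 122 and 105 (0.072), also with overlap. Fosb had 0.920, 0.0624, 0 and 0.731 CPM and Atf3 0, 0.0624, 0 and 0, too low to be tested. No gene of the other lists passed.

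Refed young mice against those always fed (YCRRF versus YAL) differed in no member by edgeR, 0 of 8 tested, nor in any gene (0% of all genes). Junb was again higher in all 4 YCRRF libraries than in YAL, at 62.8, 55.7, 65.5 and 50.3 CPM, and was the 1 member with an unadjusted p below 0.05 (log2 fold change 0.36, unadjusted p = 0.0287, adjusted p = 0.995), against 3.69% of all genes. DESeq2 called none, against 0.239% of all genes by DESeq2. Fos was higher in 3 of the 4 YCRRF libraries than in every YAL library (0, 0, 0 and 1.59 CPM), with a log2 fold change of 2.86 and SE of 1.55. B and plasma cell genes summed to 45.0 to 68.3 CPM in YCRRF and 79.1 to 148 in YAL, without overlap (median log2 fold change -2.58, 3 of 5 with an unadjusted p below 0.05), with genes at 0 in 3 YCRRF and 2 YAL libraries, and their part in the Junb and Fos values was not tested.

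Lifelong CR in old HSCs was set against short CR in young HSCs. The difference of the 2 changes, (OCR versus OAL) minus (YCR versus YAL), was tested in a fit of the 4 groups. Age and the length and course of CR differ together in this contrast, so they cannot be told apart. Of 10 members 0 differed by edgeR, against 0.0424% of all genes, and 2 (Klf6 and Atf3) had an unadjusted p below 0.05, against 8.93% of all genes. DESeq2 called none, against 239 of the 28836 genes with an adjusted p by DESeq2. Klf6 had a difference of -0.42 (SE 0.19, adjusted p = 0.539) and Junb of -0.40 (SE 0.21, adjusted p = 0.619), both on the side of a larger drop with lifelong CR in old HSCs. For Jun the difference was -0.51 with an SE of 0.41 (adjusted p = 0.832), so the fall of Jun with lifelong CR is not shown to differ from the change with short CR. Jund (-0.076), Ier2 (-0.22), Egr1 (0.27) and Dusp1 (0.15) had differences within 2 SE of 0. Fos (0.92), Fosb (1.04) and Atf3 (3.41) had at least 1 library at 0 in each young group, and at most 1.59, 0.549 and 1.42 CPM in YAL. Among the lists, 1 gene passed, the plasma cell gene Jchain (-13.70, SE 2.19).

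Old against young mice on free feeding (OAL versus YAL) asks how the set differs with age. Jun was higher and Ier2 lower in old HSCs, in every library against every library, and the other abundant members overlapped. Of 10 members 2 passed, against 14.8% of all genes, 6.89% higher and 7.93% lower. The old and young libraries also differ in receptor gene background, 553 to 788 against 113 to 229 CPM, and in genes with a count, 42071 to 43972 against 25936 to 28713, so age and these differences between the libraries cannot be told apart.

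Jun had 51.9, 46.9, 52.8 and 58.0 CPM in OAL against 16.7, 29.4, 35.0 and 17.8 in YAL and was higher (log2 fold change 1.09, SE 0.22, adjusted p = 0.00941). With the OCR level of 20.5 to 26.3 CPM, the restricted old libraries lay within the young range for Jun. Ier2 had 89.3, 84.5, 82.9 and 82.0 CPM in OAL against 113, 129.8, 111 and 117 in YAL and was lower (log2 fold change -0.46, SE 0.073, adjusted p = 0.00356). OCR, at 57.8 to 75.2 CPM, lay farther from the young range. Junb, at 60.7 to 95.7 CPM in OAL and 50.3 to 65.5 in YAL, overlapped and did not pass (log2 fold change 0.35, unadjusted p = 0.0328, adjusted p = 0.124). Klf6 (0.23), Dusp1 (-0.26), Egr1 (-0.18) and Jund (-0.040) did not pass, and Jund turned positive with DESeq2 and with other scalings. Fos had 4.34, 2.41, 2.18 and 2.43 CPM in OAL against 0, 0, 0 and 1.59 in YAL, no overlap, with 3 YAL libraries at 0 (log2 fold change 2.91, unadjusted p = 0.0470, adjusted p = 0.156). Without YAL replicate 4, the only YAL library with Fos counts, the YAL libraries are all at 0, Fos passed, and its fitted log2 fold change of 9.44 depends on the prior count (adjusted p over the alternatives 0.00195 to 0.328). Fosb (1.34, SE 1.04) and Atf3 (-0.19, SE 1.10) had wide errors.

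Around them, 3 of 30 other immediate early genes were higher in old HSCs: the kinase gene Sgk1 (2.13, SE 0.30), Socs3 (1.87, SE 0.25) and Gadd45g (1.25, SE 0.12); 2 were lower, with Ppp1r15a named here (-0.39, SE 0.10). Of 7 other AP-1 genes tested, Atf7 was higher (0.43, SE 0.088). Heat shock genes were lower for 5 of 10 (Hspe1, -0.51, SE 0.12; Hsph1, -0.51, SE 0.11; Hspa8, -0.43, SE 0.10). Flt3 (-0.91, SE 0.20), Cd34 (-0.46, SE 0.10) and Cd48 were lower in OAL. So were 4 of 5 B and plasma cell genes (Ighm, -4.84, SE 0.41, and Cd79a, -4.23, SE 0.49), while the other, Jchain, was higher (5.64, SE 1.501). Mpo was lower too (-6.20, SE 1.46), 1 of 8 granulocyte and monocyte genes. The B and plasma cell sum was 82.3, 36.9, 62.2 and 38.4 CPM in OAL and 148, 79.1, 99.9 and 87.9 in YAL (Jchain at 0 in YAL replicates 3 and 4), and the granulocyte and monocyte sum 413 to 520.1 against 447 to 1066 (Elane at 0 in YAL replicate 2), while stromal and endothelial genes summed to 15.7 to 18.0 against 6.65 to 12.7 (Lepr at 0 in YAL replicate 3). Their part in the Jun and Ier2 differences was not tested. The median of all genes was 0.045, or 0.16 with factors from genes of at least 5 CPM, which gave 1870 genes higher and 784 lower instead of 1620 and 1866; Jun and Ier2 passed under both, and with DESeq2, which called 21.6% of all genes. The edgeR count of 3486 genes was 1475, 1810, 1837 and 1552 without OAL replicate 1, 2, 3 or 4 and 5358 without YAL replicate 4. Of the list genes, 1 of 10 heat shock genes passed with factors from genes of at least 5 CPM, Mpo and Ppp1r15a did not pass whichever OAL library was left out, and Flt3 did not without OAL replicate 2 or 4.

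The knockdown libraries were checked for their targets before the members. Kdr, the VEGF receptor, had 1.93, 2.21, 3.28 and 2.03 CPM in the GFP_Kdr libraries against 6.04 and 6.07 in their scramble, and 1.24, 0.555, 1.60 and 1.35 CPM in the double knockdown against 3.97 and 4.62. It was lower in all 8 knockdown libraries than in any scramble. The fits gave log2 fold changes of -1.35 (SE 0.25, adjusted p = 0.247 by edgeR and 0.00346 by DESeq2) and -1.86 (SE 0.37, adjusted p = 0.272 and 0.00569). Bmpr1a, a BMP receptor, had 4.44, 0.656, 2.22 and 0.595 CPM in the double knockdown against 5.21 and 4.43. The library with shRNA1 replicate 1 was at the level of the scrambles, and neither tool called Bmpr1a (-1.29, SE 0.72, adjusted p = 0.602). In GFP_Kdr, which carries no Bmpr1a shRNA, it ranged over 1.67 to 7.96 CPM.

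Knockdown of Kdr alone (GFP_Kdr versus GFP_Scramble) asks what this receptor does in transplanted aged HSCs. No member separated knockdown from scramble, although 3 of the 4 knockdown libraries were below both scrambles for Jun and for Junb. By edgeR 0 of 8 passed, against 0.0149% of all genes, and 0 had an unadjusted p below 0.05, against 8.9% of all genes. DESeq2 called none, against 1.69% of all genes by DESeq2.

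Jun had 14.8, 27.0, 14.1 and 13.8 CPM in GFP_Kdr and 21.5 and 26.6 in GFP_Scramble. Replicate 2 was the highest of the 6 libraries and the other 3 were below both scrambles (log2 fold change -0.46, SE 0.27, adjusted p = 0.647). Junb had 33.7, 46.1, 34.9 and 37.0 CPM against 40.3 and 48.2, with replicate 2 inside the scramble range and the other 3 below it (log2 fold change -0.22, SE 0.14, adjusted p = 0.676). Jund had 52.1, 79.4, 70.9 and 54.1 CPM against 52.3 and 58.1 (0.22). Fos had 1.47, 0.674, 0.423 and 4.27 CPM against 1.01 and 0.955, and replicate 4 alone was high (0.80, SE 0.82). Egr1 had 43.2, 44.0, 39.6 and 39.0 CPM against 36.3 and 51.6, all within the scramble range (-0.085). Klf6 had 58.1, 83.3, 73.2 and 51.7 CPM against 66.0 and 67.1 (0.0018), Ier2 103, 112, 105 and 91.2 against 97.1 and 114 (-0.036) and Dusp1 34.4, 37.9, 37.0 and 32.9 against 37.4 and 41.2 (-0.14). GFP_Kdr replicate 2 was the highest of its group for all 7 abundant members, and GFP_Scramble replicate 2 was above replicate 1 for all 7. Fosb and Atf3 were at most 0.134 and 0.0892 CPM in GFP_Kdr and were not tested. The marker lists whose sums did not overlap were stem cell markers, with 2359, 2223, 2432 and 2269 CPM in GFP_Kdr against 2732 and 2800.3, the markers Cd34, Flt3 and Cd48, with 579.9, 554, 493 and 589 against 475 and 399, B and plasma cell genes, with 61.0, 68.5, 53.2 and 40.5 against 30.1 and 37.6, and stromal and endothelial genes, with 5.73, 4.86, 3.70 and 1.75 against 6.04 and 6.31. Kit, Cd34, Cd79b and Col1a2 led these lists, and Cdh5 and Lepr were at 0 in every GFP_Kdr library and in 1 scramble each. An unadjusted p below 0.05 was found for 6 of 8, 2 of 3, 3 of 4 tested and 0 of 3 tested of their genes. The mitochondrial share of counts, 0.440 to 0.721% against 0.774 to 0.778%, did not overlap, and the part of it and of these cell types in the member values was not tested.

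Knockdown of Kdr and Bmpr1a together (Double_KdrBmpr versus Double_Scramble) asks what loss of both receptors does. Jun and Junb were lower in all 4 knockdown libraries than in both scrambles. By edgeR 0 of 8 members tested passed, against 0.00498% of all genes, and 2 (Jun and Junb) had an unadjusted p below 0.05, against 9.85% of all genes. DESeq2 called none, against 1.82% of all genes by DESeq2.

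Jun had 14.5, 10.1, 11.5 and 8.33 CPM (shRNA1 replicates 1 and 2, then shRNA2 replicates 1 and 2) against 17.0 and 15.1 in Double_Scramble. All 4 were below both scrambles (log2 fold change -0.53, unadjusted p = 0.0424, adjusted p = 0.485). Junb had 33.9, 34.8, 31.3 and 32.0 CPM against 40.5 and 42.2, in tight groups that did not overlap (log2 fold change -0.32, unadjusted p = 0.00638, adjusted p = 0.325). Jund had 51.7, 48.2, 50.3 and 52.4 CPM against 51.0 and 50.2 (0.0023, SE 0.072). Fos had 1.123, 1.11, 0.399 and 0.541 CPM against 1.21 and 1.21, all 4 below both scrambles and lowest with shRNA2 (-0.60, SE 0.49). Egr1 had 33.9, 15.0, 25.1 and 16.2 CPM against 27.5 and 32.5, with the first replicate of each shRNA above the other (-0.41, SE 0.31). Klf6 had 50.9, 40.2, 59.3 and 61.7 CPM against 50.0 and 55.5, Ier2 96.9, 95.9, 103 and 93.7 against 103 and 96.1 and Dusp1 34.0, 35.7, 30.5 and 33.3 against 29.3 and 38.2. Those 3 overlapped, with log2 fold changes of 0.0092, -0.034 and -0.017. Fosb and Atf3 stayed at or below 0.202 and 0.202 CPM in the knockdown. Granulocyte and monocyte genes varied widely, 752, 1224, 1501 and 3136 CPM against 4503 and 2051, with Lyz2, Ngp or Mpo on top. The marker lists whose sums did not overlap were stromal and endothelial genes, with 6.40, 1.51, 1.75 and 4.17 CPM in the knockdown against 14.6 and 17.9, the markers Cd34, Flt3 and Cd48, with 743, 925, 592 and 872 against 541 and 496, and B and plasma cell genes, with 46.6, 46.3, 45.2 and 59.6 against 39.3 and 41.4. Cxcl12 led the stromal list in all 6 libraries, with Cdh5 at 0 in every library but Double_Scramble replicate 1 and Lepr at 0 in 2 knockdown libraries, Cd34 led the second list and Cd79b the third, with Ms4a1 at 0 in 3 of the 6 libraries. Of these lists 2 of 4 tested, 2 of 3 and 1 of 4 tested had an unadjusted p below 0.05. Genes with a count, 23943 to 24604 against 24933 to 25149, did not overlap, and the part of this and of these cell types in the Jun and Junb values was not tested.

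The difference between the double and the single knockdown, each against its own scramble, passed for 0 of 8 members by edgeR and for no gene (0% of all genes), and no member had an unadjusted p below 0.05, against 3.58% of all genes. DESeq2 called none, against 0.00889% of all genes by DESeq2. For Jun the difference was -0.063 (SE 0.39) and for Junb -0.10 (SE 0.17). No gene of the other lists passed in either knockdown or in their difference.

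**Figure D3:**
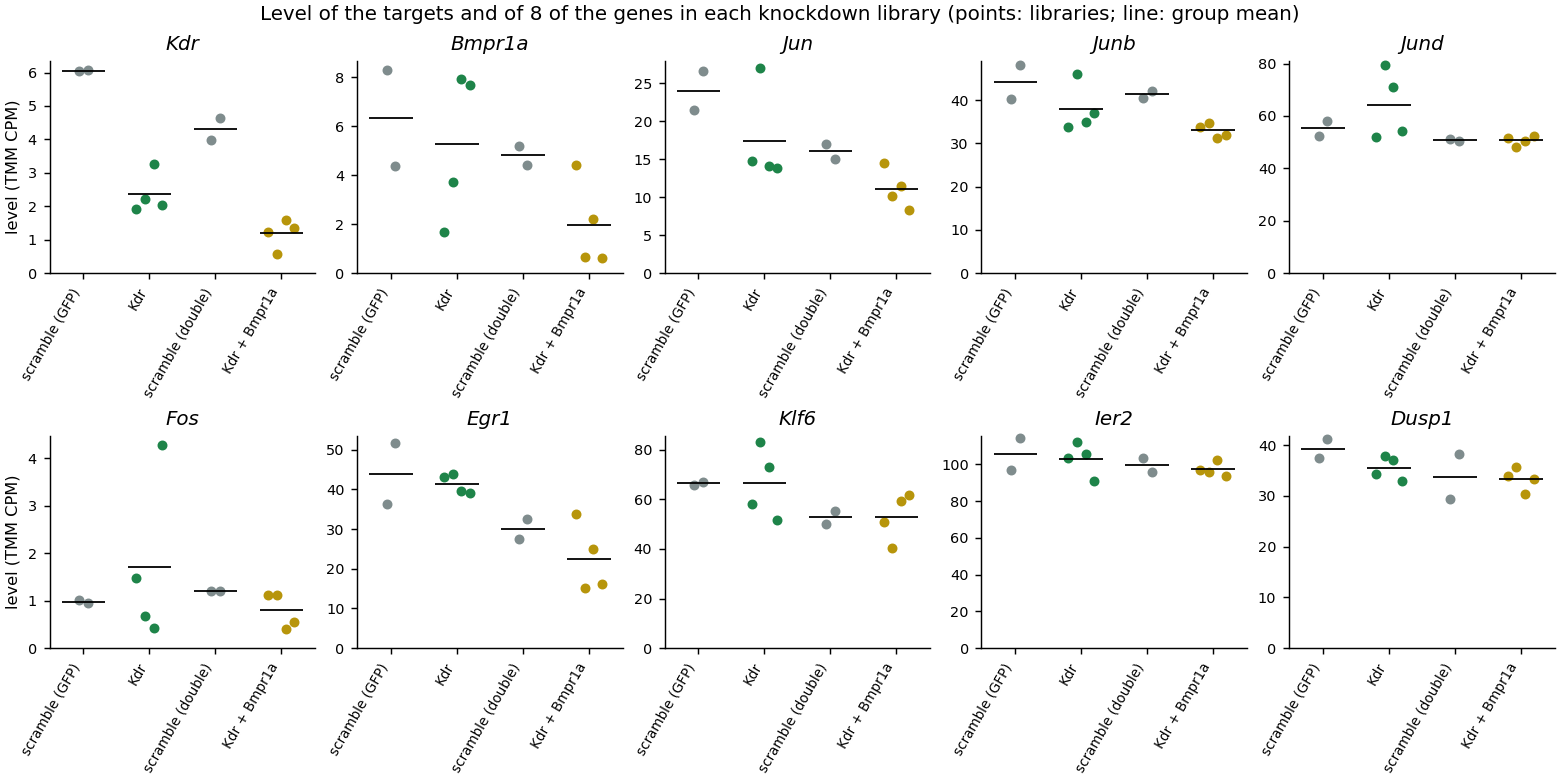
Level (y axis, TMM CPM) of the targets Kdr and Bmpr1a and of 8 of the genes in every knockdown library; points are libraries and lines are group means. Kdr lies at 1.93 to 3.28 CPM in GFP_Kdr, below its scramble at 6.04 to 6.07, and Junb at 31.3 to 34.8 CPM in the double knockdown, below its scramble at 40.5 to 42.2.

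Open chromatin was compared between refed and restricted old mice (ATAC-seq, OCRRF versus OCR), the contrast in which Jun and Junb RNA rose; open chromatin of ad libitum mice was not analysed here. All 10 members had a peak within 1 kb of the RefSeq transcription start (14 peaks). The Jun promoter peak was more open in both refed libraries. By edgeR 0 of 14 peaks passed at an adjusted p below 0.05 with a fold change above 1.5, against 0.221% of all 123372 peaks, 5 had an unadjusted p below 0.05, against 11.7%, and DESeq2 called none. By adjusted p alone, a threshold chosen after seeing the data, 2 passed, those of Jun and Klf6, against 0.525% of all peaks, and none did without OCRRF replicate 1, 1 without OCRRF replicate 2 or OCR replicate 1, 2 or 3, and 3 without OCR replicate 4.

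With a replicate block, 1 peak near a member start passed by adjusted p alone. The Jun peak (chr4:95051432-95053632) had 147 and 129 CPM in OCRRF and 103, 111, 113 and 120.5 in OCR. Both refed libraries were above all 4 restricted ones (log2 fold change 0.30, SE 0.059, adjusted p = 0.00778). The Klf6 peak (chr13:5860704-5861664) had 126 and 124 CPM in OCRRF and 103, 110.1, 102 and 112 in OCR, also without overlap (log2 fold change 0.23, SE 0.056, adjusted p = 0.0408). The Fos promoter peak (chr12:85473334-85474776) had 35.2 and 30.2 against 23.6, 26.3, 23.2 and 29.1 CPM, and both refed libraries were higher, though it missed the threshold (log2 fold change 0.36, SE 0.10, adjusted p = 0.0758). The peak near Jund (chr8:70698337-70699425) had 62.7 and 52.4 against 52.9, 39.4, 47.0 and 48.6 CPM (log2 fold change 0.29, adjusted p = 0.103), with OCR replicate 1 at the level of OCRRF replicate 2. Junb, whose RNA rose with Jun, had overlapping promoter signal (chr8:84978429-84978989), 20.4 and 16.7 against 17.1, 16.4, 18.4 and 18.1 CPM (log2 fold change 0.086, SE 0.12). The Ier2 (-0.15) and Dusp1 (-0.051) promoter peaks overlapped too, and so did those of Egr1, Fosb and Atf3. Within 5 kb there were 31 peaks, of which none passed and 10 had an unadjusted p below 0.05, and 1 passed without OCRRF replicate 2.

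Histone marks were analysed here in OCR only, in 2 libraries per mark, as signal per base over promoters. The 2 OAL libraries of each mark were not used here, so the values describe the restricted state and no comparison was made. H3K4me3, a mark of active promoters, was high at 5 of the abundant genes: 50.2 and 51.3 at Ier2, 45.8 and 46.4 at Klf6, 44.0 and 41.2 at Jun, 43.6 and 43.3 at Junb and 43.5 and 42.8 at Dusp1, against medians of 10.2 and 9.64 over 31552 promoters. These lie at percentiles 99.0 and 99.5 for Ier2 and 96.1 and 95.1 for Jun. Egr1 was lower, at percentiles 80.9 and 78.0, and so were the weakly expressed Fos (76.2 and 70.5), Fosb (73.0 and 71.8) and Atf3 (68.4 and 70.4). The window of Jund had a signal of 4.33 and 4.09, below the median of all promoters (percentiles 43.0 and 43.0), and its RefSeq start at chr8:70697739 lies upstream of the GENCODE start at 70698949. The starts used for Egr1 (34861207), Atf3 (191183333) and Dusp1 (26508472) lie inside the GENCODE genes. Those genes begin at 34859823, 191218039 and 26562128, and signal at these GENCODE starts was not examined. H3K27me3, the mark of Polycomb repression, was above the median of all promoters at Fos (percentiles 83.8 and 78.7) and Atf3 (86.2 and 86.7), below it at the likewise weakly expressed Fosb (31.1 and 31.6), and low at Junb (1.22 and 5.25), Ier2 (1.45 and 4.15) and Jun (5.70 and 14.7).

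PU.1, a transcription factor of HSCs and myeloid cells, was mapped in OAL, OCR and OCRRF, with 2 libraries a group made with antibodies of different suppliers, and the peaks were called in each library on its own. The sample titles label the OAL libraries OWT, and the paper's reporting summary names PU.1 libraries of OAL. Within 5 kb of the start, 3 members had a peak in at least 1 library: Egr1, Junb and Fos. Egr1 had one upstream of its start in 5 of the 6 libraries, with fold enrichments of 9.52 and 10.0 in OAL, 13.9 and 8.43 in OCR and 9.06 in OCRRF replicate 1. Junb had a peak over its promoter in both OCR libraries (6.69 and 5.29, at chr8:84978670-84978891 in replicate 1) and in no other. Fos had a peak at its start in OAL replicate 1 (5.91, chr12:85473680-85473917) and OCR replicate 2 had another farther upstream (6.89, 4917 bases from the start). The latter was also called in OCR replicate 1, just past the limit (6.82, 5012 bases, chr12:85468650-85468878). Library by library, 2 and 1 of the 10 members had a peak within 5 kb in OAL, 2 and 3 in OCR and 1 and 0 in OCRRF. The share of all 21000 genes with a peak within 5 kb was 4.76 and 4.43% in the OAL, 8.47 and 5.95% in the OCR and 4.29 and 3.46% in the OCRRF libraries, with 3046, 2900, 5464, 3852, 2817 and 2262 peaks in all. Since OCR has the most peaks, a peak found there alone is not shown to differ between diets. Dusp1, Fosb and Ier2 had peaks only beyond 5 kb, within 50 kb, and Jun, Jund, Atf3 and Klf6 had none there. Within 50 kb, 5 and 4 of the 10 members had a peak in the OAL, 6 and 6 in the OCR and 4 and 3 in the OCRRF libraries. The share of all genes with a peak within 50 kb was 19.8 and 18.5% in OAL, 32.1 and 23.9% in OCR and 18.3 and 15.5% in OCRRF.

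Promoter sequences of 8 members were in the RefSeq promoter table (GRCm38.p6), as 250 bases before to 50 after the start. It had no sequence for Egr1 and Ier2, for which only a start was at hand in the sections above. 6 kinds of short sequence were searched on both strands, and a match describes letters in the window only. The Jund window lies upstream of its GENCODE start, and those of Atf3 and Dusp1 lie inside the GENCODE genes. The counts of 8 include all of them. The AP-1 site TGAGTCA was in 0 of 8 (5.20% of all 32851 promoters), the CRE TGACGTCA in 1, Dusp1 (1.79%), and its core TGACG, which lies inside the CRE, in 5, Fos, Fosb, Junb, Dusp1 and Atf3 (20.8%). The EGR site GCGGGGGCG was in 1, Fosb (2.91%), the CArG box that serum response factor binds in 0 (1.63%) and the PU.1 site GAGGAAGT in 0 (3.20%). The promoters below are shown because Jun and Junb RNA passed in OCR versus OAL and in OCRRF versus OCR, because PU.1 peaks overlap those of Junb and Fos, and because Dusp1, which holds the full CRE, passed in no RNA comparison. Each is the 250 bases before the start, 5′ to 3′ on the gene's strand, with matches to these sequences in capitals; Jun holds none.
Jun, chr4:95052223-95052472, minus strand: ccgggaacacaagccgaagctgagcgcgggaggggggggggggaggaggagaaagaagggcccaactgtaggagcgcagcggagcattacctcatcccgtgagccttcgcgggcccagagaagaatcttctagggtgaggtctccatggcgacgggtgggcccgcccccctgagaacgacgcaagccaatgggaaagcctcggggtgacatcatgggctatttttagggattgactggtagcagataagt
Junb, chr8:84978749-84978998, minus strand: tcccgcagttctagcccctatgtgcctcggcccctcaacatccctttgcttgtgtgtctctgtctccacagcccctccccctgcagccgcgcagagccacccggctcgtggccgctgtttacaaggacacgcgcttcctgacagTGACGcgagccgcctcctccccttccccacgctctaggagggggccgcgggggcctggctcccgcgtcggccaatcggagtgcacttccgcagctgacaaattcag
Fos, chr12:85473640-85473889, plus strand: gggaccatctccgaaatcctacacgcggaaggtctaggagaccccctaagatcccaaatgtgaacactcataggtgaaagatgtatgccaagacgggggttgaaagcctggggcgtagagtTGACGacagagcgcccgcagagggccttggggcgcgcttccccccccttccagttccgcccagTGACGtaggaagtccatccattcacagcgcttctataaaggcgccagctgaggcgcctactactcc
Dusp1, chr17:26508473-26508722, minus strand: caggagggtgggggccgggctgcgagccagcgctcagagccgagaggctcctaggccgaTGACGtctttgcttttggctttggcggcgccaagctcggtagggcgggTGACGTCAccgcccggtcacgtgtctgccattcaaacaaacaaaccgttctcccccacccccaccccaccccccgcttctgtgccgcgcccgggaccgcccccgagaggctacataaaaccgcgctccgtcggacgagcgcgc

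As a description of pattern, with no test, the genes closest to Jun over the 22 diet libraries (Pearson r of log2 CPM, each age centred on its own mean, among 12327 genes) were Fam43a (0.882), Tspan13 (0.849), Txnip (0.846), Gm15441 (0.840) and Tecpr1 (0.832). For Klf6 they were Gm20402 (0.859), Foxo1 (0.803), Cmas (0.802), Jak3 (0.797) and Ldhd (0.796). For Fos they were Glmp (0.824), Chil3 (0.820), Lcn2 (0.816), Camp (0.815) and Thap1 (0.787), of which Chil3, Lcn2 and Camp are neutrophil granule or secretory genes. Fos had no count in 3 YAL and 3 YCR libraries and at most 4.66 CPM in any diet library, so its r values rest on low counts.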

How the data were processed

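The authors trimmed RNA reads with trim galore and cutadapt, aligned them to mm10 with STAR (GENCODE M22 genes) and deposited raw counts per gene from featureCounts. The authors deposited ATAC counts per consensus peak (cutadapt, BWA, MACS), histone signal per base in promoter windows (BWA, own script), and PU.1 peaks called with MACS2 in each library, with a score, a fold enrichment (ratio over background) and -log10 p and q values. Strand settings are not given in the sources used here. Members and lists were chosen with earlier results of these data known. Levels are TMM-scaled CPM, per kb by GENCODE M21 exon length. Each comparison was fitted alone with edgeR 4.0.16 (filterByExpr, TMM, quasi-likelihood test, Benjamini-Hochberg over all genes tested) in R 4.3.3. The difference tests used 4 groups. The fit was also run on simulated data, of which no result is given or used here. Alternatives were DESeq2 1.42.0, its size factors, other filters, other TMM factors, a replicate block, all groups in a single fit, each Bmpr1a shRNA alone and leaving out each library. Named list genes are the 3 called with the largest change in each direction and at least 5 CPM. One gene in each of 2 marker lists is not reported here and was left out of counts and sums. Likeness used scipy 1.17.1 and pandas 2.3.3.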

Additional observations from a re-analysis of the deposited data

Results flagged for a closer look

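In 9 of the 70 sets of 4 libraries (10 members in 7 groups), the highest library stood far from the other 3. Of the 58 sets with a count in every library, 4 are among these, where 5.0 percent, or 2.9 sets, are expected by chance. The value given for each is the gap to the next library divided by the range of the group, on the log2 scale. Egr1 in OAL replicate 1 (158 CPM) had 0.870 and Fos in the same library (4.34 CPM) 0.842. Jund in OCR replicate 2 (51.8 CPM) had 0.837, in a tight group. Jun in GFP_Kdr replicate 2 (27.0 CPM) had 0.897. The other 5 are single libraries with counts in groups otherwise at 0, each with a value of 1, which a single library with a count always gives there, so that no chance share applies to them: Fos in YCR replicate 1 (0.548 CPM) and in YAL replicate 4 (1.59 CPM), Fosb in YCR replicate 3 (0.409 CPM), and Atf3 in YCRRF replicate 2 (0.0624 CPM) and in GFP_Kdr replicate 3 (0.0892 CPM).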

How the results depend on the processing

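The members called in OCR versus OAL, OCRRF versus OCR and OAL versus YAL kept their direction under every alternative run: none of these called values changed sign. Numbers of members called moved by over 1.5 times as follows, and the cause was not tested unless the alternative itself shows it. For Double_KdrBmpr the main count of 0 became 2 by unadjusted p with the fold change minimum. For OAL versus YAL the main count of 2 became 4 by unadjusted p with the fold change minimum. For OCR versus OAL the main count of 5 became 0 with all diet groups in a single fit. For OCRRF versus OAL the main count of 0 became 4 with DESeq2, 2 with its size factors, 2 without a filter on low counts, 1 with at least 10 counts in every library and 3 by unadjusted p with the fold change minimum. For OCRRF versus OCR the main count of 2 became 1 with DESeq2, 1 with its size factors, 1 with a replicate block and 0 with all diet groups in a single fit. For YCR versus YAL the main count of 0 became 1 without a filter on low counts and 1 by unadjusted p with the fold change minimum. For YCRRF versus YAL the main count of 0 became 1 by unadjusted p with the fold change minimum. For YCRRF versus YCR the main count of 0 became 1 with DESeq2 and 3 by unadjusted p with the fold change minimum. For old minus young the main count of 0 became 2 by unadjusted p with the fold change minimum. Leaving out single libraries gave 1 to 2 in OCRRF versus OCR, 4 to 5 in OCR versus OAL and 2 to 3 in OAL versus YAL. The ATAC count near member starts was 2 by adjusted p alone, and the pairs of a member and a library with a PU.1 peak near the start numbered 28 within 50 kb instead of 9 within 5 kb.

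Of the log2 fold changes of members, 614 values under alternatives that leave no library out stayed on their side with their sign, 30 values of 16 results changed sign, 13 passed where the main value had not, and 10 no longer passed. Every change of sign is of a value that did not pass. With a replicate block, Atf3 was 0.81 (OAL versus YAL), Dusp1 was -0.11 (OCRRF versus OCR), Egr1 was 0.0097 (GFP_Kdr) and -0.29 (OCRRF versus OCR), Ier2 was 0.032 (GFP_Kdr), -0.0061 (OCRRF versus OCR) and -0.067 (double minus single) and Klf6 was -0.058 (double minus single). With Bmpr1a shRNA1 only, Dusp1 was 0.050 (Double_KdrBmpr), Jund was -0.014 (Double_KdrBmpr) and Klf6 was -0.21 (Double_KdrBmpr). With TMM factors from genes of at least 5 CPM, Dusp1 was 0.010 (OCR versus OAL), Junb was 0.091 (OCRRF versus OAL), Jund was -0.0086 (Double_KdrBmpr) and 0.071 (OAL versus YAL) and Klf6 was -0.0016 (Double_KdrBmpr) and -0.019 (GFP_Kdr). With DESeq2, Dusp1 was -0.012 (OCRRF versus OAL) and -0.029 (OCRRF versus OCR), Egr1 was -0.018 (OCRRF versus OCR), Ier2 was -0.0019 (double minus single) and Jund was 0.0015 (OAL versus YAL). With its size factors, Dusp1 was -0.0089 (OCRRF versus OCR), Ier2 was -0.0019 (double minus single) and Jund was 0.0048 (OAL versus YAL). Without a filter on low counts, Ier2 was -0.0053 (double minus single) and Jund was -0.00038 (Double_KdrBmpr). With at least 10 counts in every library, Jund was -0.0023 (Double_KdrBmpr) and 0.064 (OAL versus YAL) and Klf6 was -0.0020 (GFP_Kdr).

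With 1 library left out at a time, 63 values of 30 results changed sign, all of values that did not pass. An arm left with 1 library is assumed to vary like the others. The ranges (lowest to highest log2 fold change) follow. For OAL versus YAL: Atf3 -0.62 to 1.05 and Egr1 -0.70 to 0.19. For Double_KdrBmpr: Dusp1 -0.20 to 0.20, Ier2 -0.079 to 0.015, Jund -0.011 to 0.026 and Klf6 -0.068 to 0.12. For OCR versus OAL: Dusp1 -0.075 to 0.050. For OCRRF versus OCR: Dusp1 -0.027 to 0.16, Egr1 -0.29 to 0.37 and Ier2 -0.051 to 0.32. For double minus single: Dusp1 -0.052 to 0.34, Ier2 -0.12 to 0.12, Jun -0.22 to 0.23, Junb -0.24 to 0.023 and Klf6 -0.10 to 0.13. For GFP_Kdr: Egr1 -0.31 to 0.19, Fos -0.20 to 1.13, Ier2 -0.14 to 0.085 and Klf6 -0.13 to 0.11. For OCRRF versus OAL: Egr1 -0.90 to 0.087, Jun -0.34 to 0.46 and Junb -0.32 to 0.16. For YCRRF versus YAL: Egr1 -0.58 to 0.00076, Ier2 -0.065 to 0.025, Jun -0.24 to 0.12, Jund -0.041 to 0.17 and Klf6 -0.082 to 0.34. For old minus young: Egr1 -0.11 to 0.79, Fos -5.57 to 6.04 and Fosb -0.56 to 5.62.

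Replicate numbers did not pair the libraries: the correlation of same-numbered libraries ran from -0.264 to 0.216, and no RNA comparison had every pair above 0.1 (ATAC pairs -0.0085 and -0.011). The replicate block is therefore an alternative only, as in Egr1 for OCRRF versus OCR, where it gave -0.29. Counts of all genes called that moved by over 1.5 times are these. For OCR versus OAL, 1511 became 212 with all diet groups in a single fit. For OCRRF versus OCR, 1110 became 2391 with DESeq2, 3437 with a replicate block and 64 with all diet groups in a single fit. For OCRRF versus OAL, 1316 became 4577 with DESeq2, 3215 with its size factors, 808 with TMM factors from genes of at least 5 CPM, 2684 without a filter on low counts, 2080 with a replicate block and 0 with all diet groups in a single fit. For YCR versus YAL, 48 became 527 with DESeq2, 368 without a filter on low counts, 98 with at least 10 counts in every library, 7 with a replicate block and 201 with all diet groups in a single fit. For YCRRF versus YCR, 2 became 378 with DESeq2, 1 with its size factors, 1 with TMM factors from genes of at least 5 CPM, 275 without a filter on low counts, 4 with at least 10 counts in every library, 0 with a replicate block and 538 with all diet groups in a single fit. For YCRRF versus YAL, 0 became 52 with DESeq2, 40 without a filter on low counts and 9 with all diet groups in a single fit. For OAL versus YAL, 3486 became 7955 with DESeq2, 6671 without a filter on low counts, 1852 with at least 10 counts in every library and 1651 with a replicate block. For old minus young, 12 became 239 with DESeq2, 23 without a filter on low counts, 20 with at least 10 counts in every library and 2 with a replicate block. For GFP_Kdr, 3 became 261 with DESeq2, 82 without a filter on low counts, 5 with at least 10 counts in every library, 26 with a replicate block and 0 with all knockdown groups in a single fit. For Double_KdrBmpr, 1 became 332 with DESeq2, 19 without a filter on low counts, 0 with a replicate block, 15 with all knockdown groups in a single fit, 7 with Bmpr1a shRNA1 only and 0 with Bmpr1a shRNA2 only. For double minus single, 0 became 3 with DESeq2 and 5 without a filter on low counts. Leaving out single libraries gave 6 to 28 for YCR versus YAL, 0 to 10 for YCRRF versus YCR, 0 to 1 for YCRRF versus YAL, 2 to 27 for old minus young, 0 to 12 for GFP_Kdr and 0 to 1 for Double_KdrBmpr. The counts for the other gene lists under these alternatives were chosen after seeing the data.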

Other observations

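Among the genes that act above and below the members, old refed mice differed from old mice on free feeding (OCRRF versus OAL) in 4 of 21 upstream kinases and promoter factors, all lower by edgeR, against 4.14% of all genes in either direction. They include Mef2c (-0.35, SE 0.065 on the log2 scale), the p38 kinase gene Mapk14 (-0.30, SE 0.073) and the MEK gene Map2k1 (-0.27, SE 0.075). These calls depend on the processing: 0 of the 21 passed with TMM factors from genes of at least 5 CPM, which turned the split of all genes from 528 higher and 788 lower into 754 and 54, and 12 with DESeq2, which called 19.3% of all genes to which it gave an adjusted p. None of the 21 passed without OCRRF replicate 1 or 2 or OAL replicate 1 or 2, and 1, Mef2c, without OAL replicate 3 or 4, and the count of all genes was 38 to 385 over the 6 libraries instead of 1316. Of 13 feedback genes the ERK phosphatase gene Dusp4 was lower (-0.58, SE 0.10), and of 30 other immediate early genes Gadd45g (-0.51, SE 0.11). The stem cell markers Hlf (-0.40, SE 0.069) and Kit (-0.37, SE 0.090) and the megakaryocyte gene Gp9 (-0.43, SE 0.10) were lower too, and 1 granulocyte and 1 B cell gene were higher. With the same TMM factors Gadd45g, Hlf, Kit and Gp9 did not pass and Dusp4 did. None of these 5 passed without OCRRF replicate 1 or OAL replicate 1, and no gene of any list passed with all 6 diet groups in a single fit.

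With age (OAL versus YAL), 14.8% of all genes were called, 6.89% higher and 7.93% lower. Against this, 2 of the 21 upstream genes were higher, the kinase gene Rps6ka3 (0.90, SE 0.17) and Mef2c (0.48, SE 0.10). Of the same 21 genes 4 were lower, among them Rps6ka1 (-0.40, SE 0.066), Map2k2 (-0.38, SE 0.074) and Map2k7 (-0.36, SE 0.086). Of 13 feedback genes 2 passed, near the share of all genes: Spred1 was higher (0.33, SE 0.10) and Dusp2 lower (-0.65, SE 0.091). Of the remaining lists, Cd79b was lower (-0.57, SE 0.12), Jchain (5.64, SE 1.501) and Col1a2 (0.82, SE 0.24) were higher, 1 T and NK cell gene and 1 erythroid gene were higher, 1 erythroid gene was lower and no megakaryocyte gene passed. Map2k7 did not pass with TMM factors from genes of at least 5 CPM, and Map2k7, Spred1 and Col1a2 did not pass whichever OAL library was left out.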
